A study of Mus musculus with 16 samples.

Results

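The insulin-like growth factor (IGF) system was followed here through 10 genes measured in mouse granulosa cells: the ligands Igf1 and Igf2, the receptors Igf1r and Igf2r, the binding proteins Igfbp2, Igfbp3, Igfbp4 and Igfbp5, the receptor substrate Irs1 and the protease Pappa. They were picked by gene name from a list drawn up with earlier results of these data known, and all 10 were found among the 57010 genes of each count table. Another 46 genes of the pathway, listed by role (carriers, proteases, insulin receptors, adaptors, PI3K and AKT, FOXO factors, Igf mRNA binders), are given as counts beside them.

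IGF1 made in the follicle acts through IGF1R on granulosa cells and increases their response to follicle-stimulating hormone. IRS1 links the activated receptor to PI3K and AKT, whereas IGF2R binds IGF2 and delivers it to lysosomes. Binding proteins hold IGFs away from the receptor, and PAPPA cleaves some of them, IGFBP4 above all, which frees the ligand; in the mouse ovary, granulosa cells are a known site of IGF1 and binding-protein synthesis.

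RNA-seq was performed on 16 libraries of granulosa cells from female ICR mice, bought at 6 weeks of age. Con-mGC (n = 5) were freshly isolated cells of mice given sham surgery, and EM-mGC (n = 5) were freshly isolated cells of endometriosis model mice, which had received donor endometrium stitched into the abdomen. Recipients kept their own ovaries and were given estradiol until a washout; whether sham mice also were was not given in the sources used here. Ovulation was induced before the cells of both groups were taken. For the second experiment, cells of 6 endometriosis model mice were split and cultured with 5% FBS, without (PBS, n = 3) or with (EET, n = 3) 100 nM 14,15-EET, an epoxide of arachidonic acid, for 24 h; the paper also describes 24 h of culture before the treatment. How the 6 mice were combined into 3 replicates was not given in the sources used here, so p-values in that experiment may measure little more than the spread between cultures. Library totals ran from 14229123 to 15999234 counts in the 10 fresh libraries and from 21384686 to 29482826 in the 6 cultured ones.

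Granulosa cell genes were present in all 16 libraries, but the libraries were not alike. Foxl2, a transcription factor that maintains granulosa identity, averaged 212 CPM (counts scaled to library size) in Con-mGC, 218 in EM-mGC, 147 in PBS and 125 in EET. Of the 11 granulosa markers, 10 were lower in PBS than in EM-mGC by edgeR's test and 9 were still above 1 CPM in every cultured library. Fshr, the receptor for follicle-stimulating hormone, averaged 5.18 CPM in PBS against 103 in EM-mGC, Nr5a2 averaged 106 against 786, and Inhba, an activin subunit gene and the 1 marker that did not pass, averaged 2229 against 2212. The 2 below 1 CPM were nearly absent: Cyp19a1, the aromatase gene, averaged 0.170 CPM in PBS against 287 in EM-mGC, and Amh averaged 0.303 against 51.9. The fresh libraries also held markers of other cells. The 7 macrophage markers summed to between 101 and 231 CPM in the fresh libraries and to between 11.3 and 15.3 in the cultured ones, and the 7 stromal markers to between 588 and 1597 against 244 to 322. The 5 red blood cell markers summed to between 2436 and 5652 CPM in 9 fresh libraries, to 16015 in EM-mGC replicate 3 (led by Hba-a1, 7222 CPM) and to at most 0.223 in culture. The 7 oocyte markers, led by Gdf9, summed to between 95.1 and 728 CPM in fresh libraries and to at most 1.38 in culture. Among the EM-mGC libraries, replicate 2 had the highest summed level of the 11 granulosa markers (16789 CPM, led by Inha) and replicate 4 the lowest (5081 CPM), while replicate 3 had 21.8% mitochondrial counts against 6.76% to 11.1% in the other fresh libraries. Without replicate 3, as with it, no IGF gene passed the test against Con-mGC. In bulk RNA, fewer cells of a type and less RNA per cell cannot be told apart.

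The promoter sequences of the binding-protein genes are shown because these 4 related genes changed in opposite directions between cultured and fresh cells, 2 rising and 2 falling. The 100 bases before the most upstream start listed by RefSeq (mouse GRCm38.p6) are printed 5′ to 3′ on the gene's strand for Igfbp2 (chr1:72824380-72824479, plus), Igfbp3 (chr11:7213924-7214023, minus), Igfbp4 (chr11:99041144-99041243, plus) and Igfbp5 (chr1:72874866-72874965, minus). Capitals mark matches to any of the motifs searched on both strands. These were TATAAA, the core of a box that positions transcription starts, then GGGCGG, bound by Sp1-type factors, and finally the E-box CACGTG.
Igfbp2: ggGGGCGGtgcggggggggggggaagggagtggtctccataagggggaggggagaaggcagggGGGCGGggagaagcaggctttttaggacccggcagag
Igfbp3: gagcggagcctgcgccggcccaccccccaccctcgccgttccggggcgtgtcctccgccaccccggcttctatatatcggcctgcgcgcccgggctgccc
Igfbp4: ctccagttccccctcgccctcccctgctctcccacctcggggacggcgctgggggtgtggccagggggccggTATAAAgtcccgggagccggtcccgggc
Igfbp5: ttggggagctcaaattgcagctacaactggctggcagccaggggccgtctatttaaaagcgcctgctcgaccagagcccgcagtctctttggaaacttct
Igfbp4 had 1 TATAAA match, which 5.56% of all 32851 promoter windows of this length held, and Igfbp2 had 2 GGGCGG matches, found at least once in 24.7% of windows. CACGTG, held by 3.17% of windows, was in none of the 4, and Igfbp3 and Igfbp5 had no match to any of the 3 motifs. GC content was 71% for Igfbp2, 77% for Igfbp3, 75% for Igfbp4 and 55% for Igfbp5. A match describes letters only, not a bound site. On GRCm39, the build named in the submitters' processing notes, Igfbp2 (chr1:72863662-72891633, plus strand) and Igfbp5 (chr1:72897091-72914043, minus strand) lie tail to tail with 5457 bases between them. Igfbp4 (chr11:98932070-98945218) and Igfbp3 (chr11:7156086-7163923) are far apart on chromosome 11. The other members are Igf1 (chr10:87694127-87772904, plus), Igf2 (chr7:142204503-142220553, minus), Igf1r (chr7:67602575-67883416, plus), Igf2r (chr17:12901293-12988551, minus), Irs1 (chr1:82210822-82269137, minus) and Pappa (chr4:65042411-65275746, plus).

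Levels of the 10 member genes were compared as CPM per kb of exon, and ranks here and in culture are among these 10 only. In Con-mGC, Igfbp5 ranked first at 69.8 ± 8.70 CPM per kb (SD, n = 5), followed by Igfbp2 at 38.9 ± 3.82. Igf2r (23.8 ± 3.78) and Igfbp4 (21.4 ± 5.13) came next and did not differ beyond their spread, and nor did Igf1 (11.9 ± 1.36) and Igf1r (11.1 ± 1.09). Irs1, Igfbp3 and Pappa were lowest among the readily counted genes, between 3.39 and 5.57 CPM per kb, with overlapping spreads. The same 6 genes held the first 6 places in EM-mGC, where the mean ± SD ranges of all neighbours among them overlapped. Igf2 had between 0 and 4 reads in each of the 16 libraries, too few to test, so a change in Igf2 was not detectable at this depth.

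In the cultured PBS libraries the order differed. Igfbp2 ranked first at 195 ± 21.5 CPM per kb (SD, n = 3), Igfbp4 second at 84.0 ± 20.5, and then Igf1 at 27.9 ± 2.35, within the spread of Igf2r at 24.8 ± 0.842. Igfbp5 followed at 7.12 ± 2.97, within the spread of Igf1r at 5.00 ± 0.246, and Igfbp3 (0.737 ± 0.190) and Pappa (0.608 ± 0.0603) were at the end. EET libraries had the same order, led by Igfbp2 (161 ± 6.92 CPM per kb) and Igfbp4 (119 ± 9.89).

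**Figure D1:**
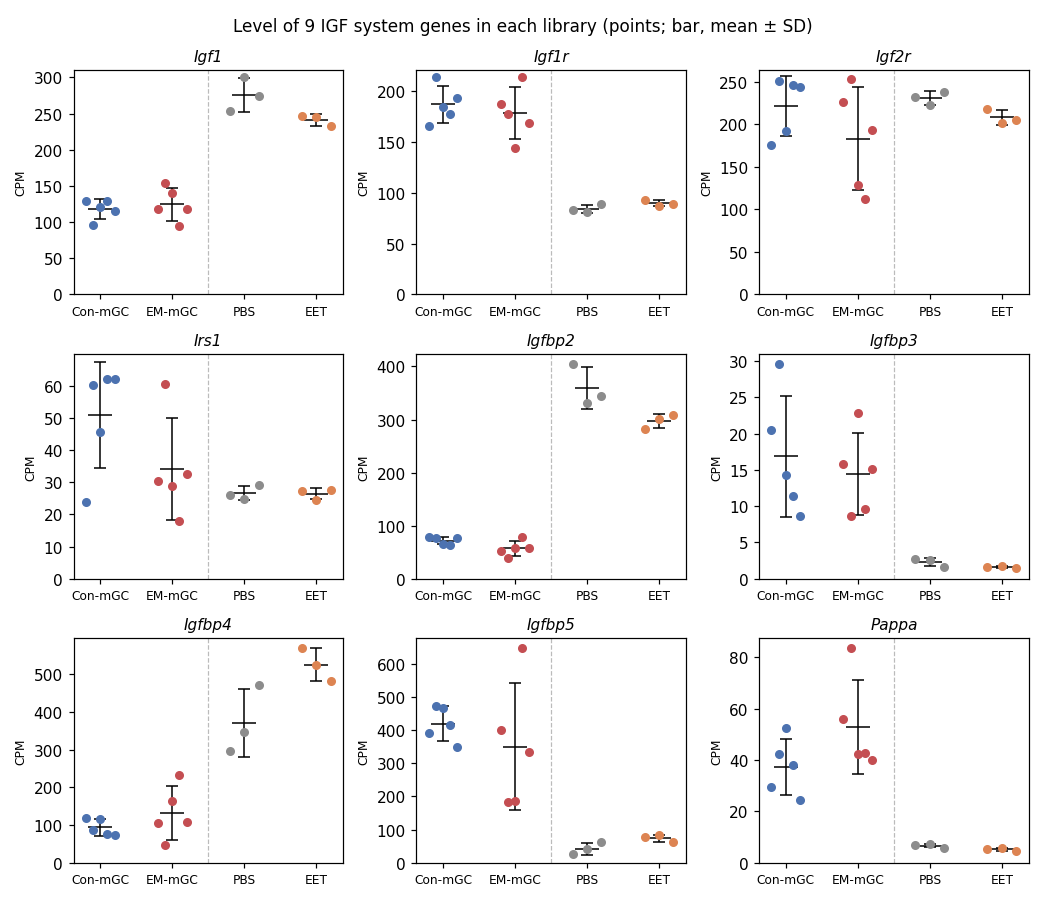
Level in CPM (vertical axis, linear, from 0) of 9 IGF system genes in each library; points are libraries, bars the mean ± SD, and the dashed line separates fresh (Con-mGC, EM-mGC) from cultured (PBS, EET) cells. Igf1, Igfbp2 and Igfbp4 sit higher and Igf1r, Igfbp3, Igfbp5 and Pappa lower in the cultured libraries.

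The first comparison asked whether granulosa cells of endometriosis model mice differed from those of sham-operated mice. No IGF system gene passed the test: 0 of the 9 genes tested had a Benjamini-Hochberg adjusted p under 0.05 (edgeR, quasi-likelihood test), against 0% of all 17229 genes tested. At an unadjusted p under 0.05 the count was also 0 of 9, where 9.44% of all genes passed, and in none of the 9 were the groups free of overlap (1.53% of all genes). The median log2 fold change of the 9 genes was −0.22, beside −0.01 for all genes tested.

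Igf1, the ligand gene, had 129, 96.6, 121, 130 and 115 CPM in the Con-mGC libraries and 118, 154, 141, 94.4 and 118 CPM in the EM-mGC libraries. The groups overlapped fully, and the log2 fold change was 0.08 (SE 0.14, adjusted p = 0.876 in edgeR's quasi-likelihood test). Without EM-mGC replicate 2 it was −0.0081, and without EM-mGC replicate 4 it was 0.16. Igf1r, encoding the signalling receptor, was equally close between the groups, at 187 ± 18.2 CPM in Con-mGC and 178 ± 25.6 in EM-mGC (SD, n = 5 each). Igf2r, the clearance receptor, averaged 222 ± 35.2 and 183 ± 61.0 CPM, with EM-mGC replicates 3 and 4 (129 and 113 CPM) below every Con-mGC library.

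Pappa and Igfbp4, the protease gene and the gene of its main substrate, had the largest positive differences. Pappa measured 29.6, 42.4, 52.4, 38.1 and 24.4 CPM in Con-mGC and 55.9, 83.6, 42.3, 42.9 and 40.0 CPM in EM-mGC. Replicates 1 and 2 of EM-mGC stood above all Con-mGC libraries and the other 3 did not, giving a log2 fold change of 0.50 (SE 0.23, adjusted p = 0.530 in edgeR's test), and 0.28 without replicate 2. Igfbp4 measured 120, 86.0, 117, 75.7 and 73.3 CPM in Con-mGC against 107, 46.3, 165, 234 and 110 CPM in EM-mGC. The EM-mGC group held both the lowest and the highest library, and the log2 fold change was 0.49 (SE 0.33, adjusted p = 0.653 in edgeR's test). Without EM-mGC replicate 4 it was 0.18, and without replicate 2 it was 0.70.

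Igfbp5, per length the highest of the 4 member binding-protein genes in all fresh libraries except EM-mGC replicate 3, measured 391, 473, 467, 416 and 349 CPM in Con-mGC and 402, 182, 185, 647 and 334 CPM in EM-mGC. The coefficient of variation was 12.5% in Con-mGC and 54.6% in EM-mGC, because replicates 2 and 3 were low and replicate 4 was high. The log2 fold change was −0.26 (SE 0.30, adjusted p = 0.799 in edgeR's test), with −0.60 without EM-mGC replicate 4 and −0.09 without replicate 2 or without replicate 3. Irs1, the receptor substrate, averaged 50.9 ± 16.6 CPM in Con-mGC and 34.1 ± 15.9 in EM-mGC, for a log2 fold change of −0.58 (SE 0.31, adjusted p = 0.567), and −0.89 without EM-mGC replicate 2. Con-mGC replicate 1 (23.9 CPM) lay among the EM-mGC values and EM-mGC replicate 2 (60.6 CPM) among the sham values. Con-mGC replicate 1 also had the fewest genes with a read of all fresh libraries. It had 22071, against 25080 in the next lowest, EM-mGC replicate 3, and whether this bears on Irs1 was not tested. Igfbp2 and Igfbp3 had log2 fold changes of −0.33 (SE 0.16) and −0.22 (SE 0.33), neither past the test. Leaving out 1 library gave −0.47 to −0.21 for Igfbp2. For Igfbp3 it gave −0.45 to 0.061, the latter without Con-mGC replicate 2.

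The spread within EM-mGC ran through several genes of the system. Replicate 2 had the highest Igf1, Igf2r, Irs1 and Pappa of the group and the lowest Igfbp2, Igfbp3, Igfbp4 and Igfbp5. Replicate 4 had the highest Igf1r, Igfbp2, Igfbp4 and Igfbp5 and the lowest Igf1, Igf2r and Irs1. These are the libraries with the highest and lowest summed granulosa markers, and the part of these markers in the spread of the IGF genes was not tested. The 6 neutrophil markers summed to 38.8 to 168 CPM in EM-mGC, highest in replicate 4, and to 6.09 to 54.0 in Con-mGC. All 6 had positive log2 fold changes (median 2.68) and none passed the test, and their part in the IGF values was likewise not tested. The stromal markers averaged 1528 ± 47.9 CPM in Con-mGC and 1018 ± 280 in EM-mGC, and no gene of any marker list passed the test between these groups.

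Of the other 46 pathway genes, 37 were tested in this comparison and 0 passed the adjusted threshold. At an unadjusted p under 0.05 there were 5 of 37, beside 9.44% of all genes, and of these the smallest adjusted p was 0.348 for Socs3, a feedback inhibitor of cytokine and insulin signalling (24.8 CPM in Con-mGC, 47.3 in EM-mGC, log2 fold change 0.93, SE 0.21, edgeR). DESeq2 gave Socs3 an adjusted p of 0.0136. Grb14, an adaptor that restrains the insulin receptor, was the 1 pathway gene of 37 whose groups did not overlap (1.53% of all genes), with 275 to 451 CPM in Con-mGC and 205 to 274 in EM-mGC (log2 fold change −0.44, SE 0.14, adjusted p = 0.449 in edgeR's test). Both were named after their values were seen. The 11 PI3K and AKT genes were all tested, and none reached an unadjusted p under 0.05.

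**Figure D2:**
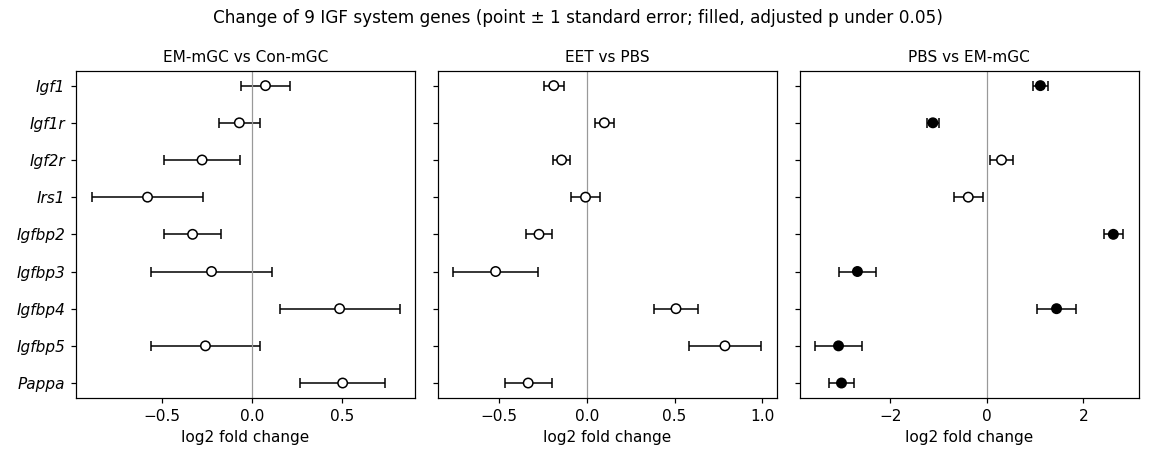
Log2 fold change (horizontal axis; scales differ between panels) of 9 IGF system genes in the 3 comparisons, as points ± 1 standard error from edgeR; filled points had an adjusted p under 0.05. No point is filled for EM-mGC against Con-mGC or EET against PBS, and 7 of 9 are filled for PBS against EM-mGC.

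The second comparison asked what 14,15-EET changed in cultured cells of endometriosis model mice. Igfbp4, Igfbp5 and Igf1r had higher and Igfbp2, Igfbp3, Igf1, Igf2r, Irs1 and Pappa lower mean levels in EET. In edgeR's quasi-likelihood test without pairing, however, 0 of the 9 genes tested passed an adjusted p under 0.05. Of all 15050 genes tested, 1.22% did. In 6 of the 9 genes the EET and PBS libraries did not overlap, against 16.6% of all genes: 2 were higher (7.72% of all genes) and 4 lower (8.85%). The same 6 had an unadjusted p under 0.05, beside 12.4% of all genes. With only 3 cultures per group and members chosen with earlier results known, these counts are a description.

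Igfbp4 measured 296, 346 and 471 CPM in PBS and 570, 525 and 483 CPM in EET. All EET libraries were above all PBS libraries, although PBS replicate 3 and EET replicate 3 were close, and the log2 fold change was 0.51 (SE 0.12, adjusted p = 0.0772 in edgeR's test). Igfbp5 measured 26.1, 40.6 and 61.6 CPM in PBS against 76.4, 83.7 and 62.3 CPM in EET. Again PBS replicate 3 nearly met EET replicate 3, with a log2 fold change of 0.79 (SE 0.21, adjusted p = 0.106 in edgeR's test). The study describes its cultures as paired, and with the replicate number as a block both genes passed the test. Igfbp4 then had a log2 fold change of 0.53 (adjusted p = 0.0325) and Igfbp5 of 0.84 (adjusted p = 0.0405, both edgeR). Without PBS replicate 3 and without pairing, the values were 0.71 (adjusted p = 0.00258) for Igfbp4 and 1.14 (adjusted p = 0.00796) for Igfbp5. Without PBS replicate 1 they were 0.38 (adjusted p = 0.0647) and 0.55 (adjusted p = 0.0620), the lowest when any 1 library was left out, and neither gene passed when a library other than PBS replicate 3 was left out. Both also passed with no filter on low counts, at adjusted p of 2.13e-17 for Igfbp4 and 7.00e-27 for Igfbp5 (edgeR). These values lie far below the 0.0772 and 0.106 of the main fit. Passes with no filter, here and below, are given no weight beyond the main fit.

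Igfbp2 measured 405, 331 and 344 CPM in PBS and 283, 301 and 308 CPM in EET. Every EET library was lower than every PBS library, with a log2 fold change of −0.27 (SE 0.08, adjusted p = 0.132 in edgeR's test). It passed in DESeq2 (adjusted p = 0.0176), with no filter on low counts and without PBS replicate 2 (−0.34, adjusted p = 0.0332), and was −0.17 (adjusted p = 0.142) without PBS replicate 1. Igfbp3 was scarce, at 2.31 ± 0.594 CPM in PBS and 1.59 ± 0.105 in EET (SD, n = 3 each), and the groups overlapped.

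Igf1 measured 254, 300 and 274 CPM in PBS and 246, 246 and 232 CPM in EET. The EET libraries were all lower by a small margin, giving a log2 fold change of −0.19 (SE 0.06, adjusted p = 0.169 in edgeR's test). Igf1 passed with no filter on low counts and without PBS replicate 1 (−0.24, adjusted p = 0.0294, edgeR). Without PBS replicate 2 the value was −0.13. Igf2r averaged 231 ± 7.83 CPM in PBS and 208 ± 8.85 in EET, and Pappa 6.71 ± 0.665 and 5.28 ± 0.515, both without overlap and neither past the test. Igf1r (83.9 ± 4.13 and 89.7 ± 3.28 CPM) and Irs1 (26.7 ± 2.29 and 26.5 ± 1.74 CPM) overlapped between the groups. The summed granulosa markers averaged 6035 CPM in PBS and 5373 in EET, and 1 of the 9 markers tested fell. Summed smooth muscle and pericyte markers averaged 651 CPM in PBS and 544 in EET, and 1 of the 5 tested fell. Whether these shifts bear on the IGF genes was not tested.

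Of the other pathway genes, 35 were tested in EET against PBS, 0 passed the adjusted threshold (1.22% of all genes) and 4 had an unadjusted p under 0.05, where 12.4% of all genes did (median log2 fold change 0.02, beside 0.00 for all genes). The smallest adjusted p was 0.180, for Pik3r1, the regulatory subunit of PI3K, at 333 CPM in PBS and 394 in EET (log2 fold change 0.25, SE 0.08, edgeR). Pik3r1 was named after its value was seen.

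**Figure D3:**
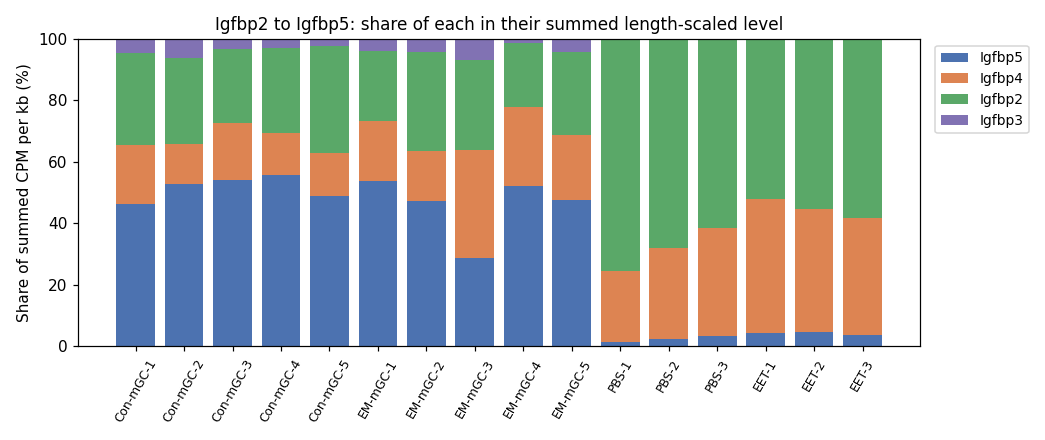
Share (%) of Igfbp2, Igfbp3, Igfbp4 and Igfbp5 in their summed CPM per kb, 1 bar per library. Igfbp5 averaged 51.5% in Con-mGC and 2.47% in PBS, and the Igfbp4 share averaged 29.2% in PBS and 40.7% in EET.

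Per length, the 4 binding-protein genes summed to nearly the same level in PBS (287 ± 19.7 CPM per kb) and EET (293 ± 5.21, SD, n = 3 each), while their proportions differed. Igfbp4 made up 29.2% ± 6.10 of the sum in PBS and 40.7% ± 2.82 in EET, and Igfbp2 68.0% ± 6.98 and 55.0% ± 3.13. The shares of both genes did not overlap between the groups, and they depend on each other, since the 4 sum to 100%. In fresh cells the same sum was 135 ± 13.1 CPM per kb in Con-mGC and 124 ± 51.7 in EM-mGC (n = 5 each), with Igfbp5 at 51.5% ± 3.88 and 45.9% ± 9.95. EM-mGC replicate 3, with an Igfbp5 share of 28.9%, was the lowest fresh library.

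Setting cultured PBS cells beside freshly isolated EM-mGC showed the widest differences in the IGF system. Culture, experiment, mice and sequencing depth all differ between these groups and cannot be told apart. By edgeR's quasi-likelihood test 7 of 9 genes had an adjusted p under 0.05, where 69.0% of all 17301 genes tested did, so the count is near the background. Igf1, Igfbp2 and Igfbp4 rose (31.1% of all genes were higher) and Igf1r, Igfbp3, Igfbp5 and Pappa fell (37.9% lower). The groups did not overlap for any of the 7, nor for 66.2% of all genes.

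Among ligand and receptors, Igf1 rose from 125 ± 22.9 CPM (SD, n = 5) to 276 ± 23.3 (n = 3), a log2 fold change of 1.11 (SE 0.15, adjusted p = 0.000114 in edgeR's test). Igf1r went the other way, from 178 ± 25.6 to 83.9 ± 4.13 CPM, a log2 fold change of −1.12 (SE 0.13, adjusted p = 4.79e-05). Igf2r and Irs1 did not pass the test, with log2 fold changes of 0.30 (SE 0.24) and −0.38 (SE 0.31). Leaving out 1 library gave 0.16 to 0.41 for Igf2r and −0.56 to −0.11 for Irs1.

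The neighbouring genes Igfbp2 and Igfbp5 moved in opposite directions. Igfbp2 rose from 57.1 ± 14.6 to 360 ± 39.7 CPM (log2 fold change 2.62, SE 0.20, adjusted p = 3.66e-06 in edgeR's test). Igfbp5 fell from 350 ± 191 to 42.8 ± 17.9 CPM (log2 fold change −3.07, SE 0.49, adjusted p = 0.000329). The lowest EM-mGC library (182 CPM of Igfbp5) was still above the highest PBS library (61.6 CPM). Igfbp4 rose by a log2 fold change of 1.44 (SE 0.41, adjusted p = 0.00941), and Igfbp3 fell from 14.4 ± 5.68 to 2.31 ± 0.594 CPM (log2 fold change −2.68, SE 0.38, adjusted p = 0.000147).

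Pappa fell from 52.9 ± 18.2 to 6.71 ± 0.665 CPM, a log2 fold change of −3.01 (SE 0.27, adjusted p = 7.91e-06 in edgeR's test), while Igfbp4, its main substrate, rose. Markers of several cell types shifted between the same groups. Of the 11 granulosa markers 10 fell, as did all 7 macrophage markers, all 6 endothelial markers and 6 of 7 stromal markers. Summed stromal markers were 1018 ± 280 CPM in EM-mGC and 273 ± 42.7 in PBS. Other lists held markers that rose. Of the 6 smooth muscle and pericyte markers 2 rose and 4 fell, and of the 6 theca markers 1 rose and 4 fell. Their sums went from 196 ± 64.1 to 651 ± 98.9 CPM, led in PBS by Acta2, and from 687 ± 128 to 3954 ± 329 CPM, led by Aldh1a1. Among 6 cumulus markers 2 rose and 1 fell, and among 7 luteal markers 1 rose and 3 fell. The part of these cells in the changes of the IGF genes was not tested.

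**Figure D4:**
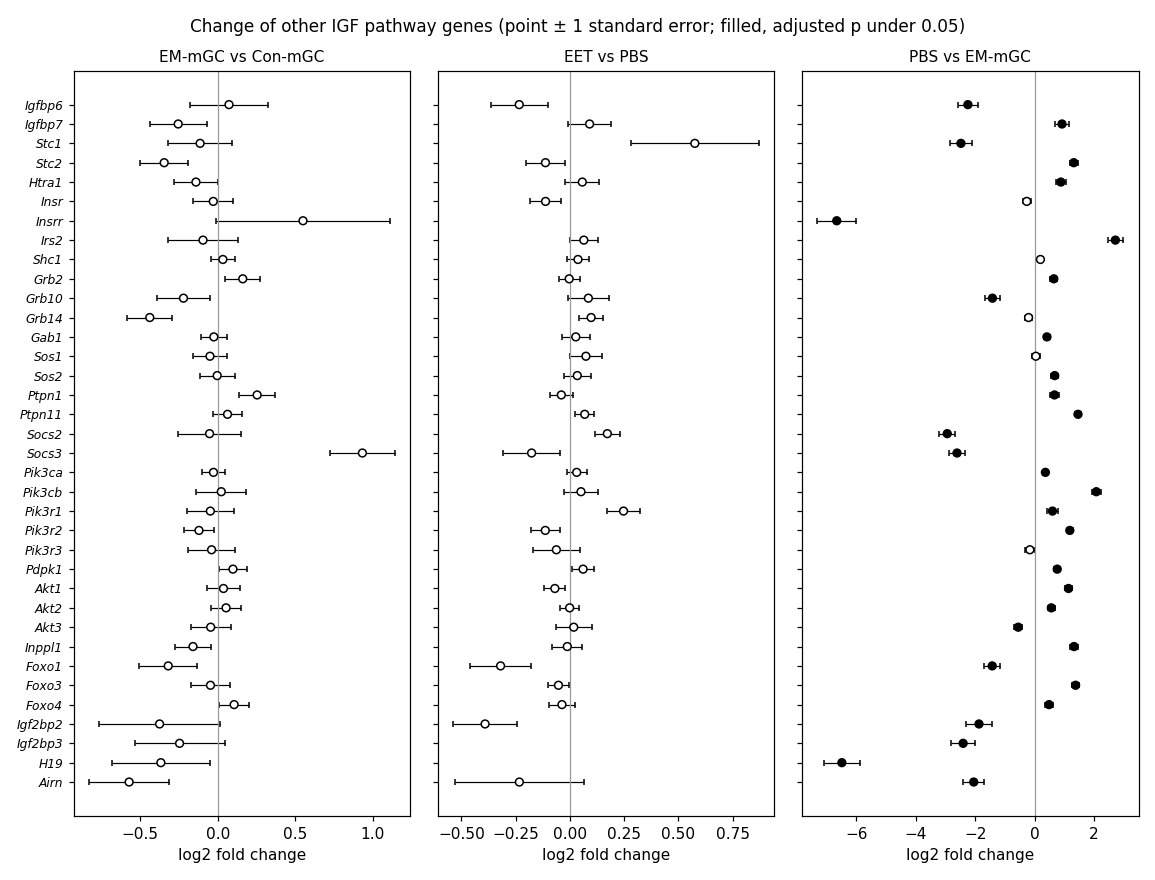
Log2 fold change (horizontal axis; scales differ between panels) of other IGF pathway genes tested, ordered by role, as points ± 1 standard error from edgeR; filled points had an adjusted p under 0.05. No point is filled in the first 2 panels, and filled points lie on both sides of 0 in PBS against EM-mGC.

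Of the other pathway genes 37 were tested in PBS against EM-mGC, and 19 rose, 13 fell and 5 did not pass. Of all genes tested, 69.0% passed, 31.1% higher and 37.9% lower, and the counts by role are read against the same shares. Among the 11 PI3K and AKT genes 8 rose and 2 fell; Akt1, encoding a kinase downstream of PI3K, went from 207 to 467 CPM (named after its value was seen). The 12 adaptor and substrate genes tested included 6 that rose and 3 that fell. Irs2, the companion of Irs1 as a receptor substrate, rose from 19.7 ± 8.19 to 133 ± 12.4 CPM (log2 fold change 2.71, SE 0.26, adjusted p = 1.45e-05 in edgeR's test). Socs2, a suppressor of growth hormone signalling, fell from 446 ± 159 to 59.3 ± 4.10 CPM, a log2 fold change of −2.94, and Socs3 fell from 47.3 ± 15.0 to 7.92 ± 0.744 CPM, a log2 fold change of −2.61. Stc1, whose protein stanniocalcin inhibits PAPPA, fell with a log2 fold change of −2.48 (SE 0.36), from 8.35 ± 2.37 to 1.54 ± 0.665 CPM. H19, the imprinted RNA next to Igf2, averaged 9.93 ± 4.45 CPM in EM-mGC and 0.103 ± 0.0926 in PBS.

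Profiles over all 16 libraries were compared with those of 11352 other protein-coding genes by the root mean square difference in centred log2 CPM, where 0 would be the same profile. Igf1r was closest to Pan3 (0.0984), Igf1 to Ube2s (0.124) and Igfbp2 to Cpxm1 (0.177). Igfbp4 was closest to Rnase4 (0.278), Igfbp3 to Tspan15 (0.376), Pappa to Trpv4 (0.377) and Igfbp5 to Xaf1 (0.416). Fresh and cultured libraries differ in preparation and depth, which every such profile carries.

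Some counts carry an overlap with another gene. Igf2r overlaps the antisense RNA Airn, which had 46 to 164 reads in fresh and 19 to 34 in cultured libraries, and Igf1 overlaps Igf1os, with at most 16 reads. The strand setting of the counting was not given in the sources used here, so reads of these pairs cannot be told apart with certainty.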

How the data were processed

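The authors prepared stranded poly(A) libraries and sequenced them as 150-base pairs; the submitters' processing notes list fastp, HISAT2, StringTie and GRCm39, with versions not given in the sources used here. The deposited tables hold raw read counts per gene for the 10 fresh and 6 cultured libraries. Counts were tested in R 4.3.3 with edgeR 4.0.16 (TMM scaling, filterByExpr, quasi-likelihood test, Benjamini-Hochberg adjustment over all genes tested, threshold 0.05), one fit per comparison. Displayed CPM use TMM factors over all 16 libraries. Exon lengths for CPM per kb came from GENCODE M21 (GRCm38), since the tables held none, and promoter sequences from RefSeq, which matched 9 of the 10 genes. DESeq2 1.42.0, other scaling and filters, a replicate block and leaving out each library were alternatives. The series calls the cultures paired, but the study's methods name DESeq2 and no block, so the block was kept as an alternative. Residuals of same-numbered EET and PBS libraries correlated at 0.06, 0.10 and −0.02, and 3 of 6 libraries matched best with their own number. With so few cultures per group, these values do not settle whether the numbers mark pairs. All 10 genes were named, and other pathway genes if they passed the test in the first 2 comparisons, or as the 5 largest changes over 5 CPM in the third; any other was named after its value was seen. Genes and lists were chosen with earlier results of these data known. Pathway genes that are not named are counted but not reported individually here. The fitting was tested on simulated data.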

Additional observations from a re-analysis of the deposited data

How the results depend on the processing

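In PBS against EM-mGC, all 7 IGF genes passed the test under every alternative run and when any library was left out (7 to 7 IGF genes, 31 to 34 other pathway genes, 10792 to 12332 of all genes); requiring 10 counts in every library shifted all log2 fold changes by −0.16 in the median. In EM-mGC against Con-mGC, no IGF gene passed under any alternative. DESeq2 called 1 other pathway gene (Socs3, log2 fold change 0.94, adjusted p = 0.0136) and 116 of all genes, no filter on low counts called 4 genes, and the replicate block 2, where mice differ and numbers pair nothing; leaving out 1 library gave 0 to 46, the latter without Con-mGC replicate 3. The log2 fold change of Igfbp3 became 0.061 without Con-mGC replicate 2 (range −0.45 to 0.061) and that of Igf1 −0.0081 without EM-mGC replicate 2 (−0.0081 to 0.16).

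EET against PBS depended most on the processing. IGF genes called numbered 1 with DESeq2 (Igfbp2), 4 with no filter (Igf1, Igfbp2, Igfbp4, Igfbp5), 2 with the replicate block (Igfbp4, Igfbp5) and 0 to 2 on leaving out 1 library: Igf1 without PBS replicate 1, Igfbp2 without PBS replicate 2, and Igfbp4 and Igfbp5 without PBS replicate 3. Other pathway genes called numbered 2 with no filter (Foxo1, Pik3r1) and 0 to 2 on leaving out 1 library, among them Foxo1 and Igfbp7 without PBS replicate 1. With no filter, adjusted p could fall far while the fold change hardly moved. Foxo1 had a log2 fold change of −0.32 in both fits, with adjusted p = 2.10e-05 against 0.368 in the main fit (both edgeR). Calls with no filter are therefore a description only. Of all genes, 323 were called with DESeq2, 662 with no filter, 341 with the replicate block and 48 (without EET replicate 3) to 436 (without PBS replicate 2) on leaving out 1 library. Irs1 turned to 0.056 without PBS replicate 3 and 0.049 without EET replicate 2 (range −0.066 to 0.056). Pairing changed no other IGF call. The cause of these differences was not tested. Igf2, at 0 to 4 reads, was too scarce to test. Igfbp3 was tested at 39 to 57 reads in the PBS libraries and 31 to 41 in the EET libraries.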
